A study of Mus musculus with 30 samples.

Results

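Mouse embryonic fibroblasts in which p53 had been restored and DNA damage induced were compared after knockdown of p53 and after knockdown of hnRNP-K, directly against each other and without the control arrays. The comparison holds the 6 arrays of the hnRNPKKD experiment whose titles name siRNA p53 (replicates R1 to R3) and siRNA hnRNPK (replicates R1 to R3), out of 30 arrays in the series. All of these cells were p53 LSL/LSL fibroblasts of mixed C57BL/6 x 129SvJ background, isolated from E13.5 embryos. They carried p53 alleles blocked by a removable stop cassette, which an adenovirus with Cre recombinase (24 h) opened. They then received an siRNA for 24 h and 100 nM doxorubicin, a DNA-damaging drug, for 13 h. The 2 groups are called siP53 (3 arrays) and siHnrnpk (3 arrays) here, and the 3 control siRNA arrays of the same experiment (siControl) are given beside them but do not enter the test.

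Outside this comparison, 2 other contrasts in the series bear on p53 and share no array with it. The lincP21KD experiment treated the same kind of cells in the same way and gives siP53 (3 arrays) against a scrambled siRNA, siScramble (2 arrays). The time course gives AdenoCRE, with p53 restored, against AdenoGFP, with p53 still blocked, after 0, 1, 3, 6 and 9 h in 500 nM doxorubicin, where every virus and hour has 1 array. The viruses differ in Cre and GFP as well as in p53 status, which cannot be told apart. Labels do not say whether the arrays of a group came from separate cultures or embryos, so the p-values measure the spread between these arrays, which may be technical.

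p53 is a transcription factor that DNA damage stabilises. It switches on genes for cell-cycle arrest, death and repair, and, largely through the CDK inhibitor p21 and the DREAM repressor complex, it lowers genes needed for DNA replication and mitosis. hnRNP-K is an abundant poly(C)-binding protein with KH domains that takes part in splicing, mRNA stability, translation and transcription, and it is known as a p53 partner in the DNA damage response. The study asked how an RNA induced by p53, bound to hnRNP-K, takes part in the p53 response, and a direct comparison of the 2 knockdowns shows where the RNA levels they left behind differ. The p53 transcript itself and the p53-induced RNA that gave the study its title are not analysed here.

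Values are log2 RMA signal, on which a difference of 1 is a fold change of 2. Array medians over all probe sets lay between 4.833 and 4.863 in the 6 arrays. Within siHnrnpk the arrays correlated at 0.9968 to 0.9976 over the 12674 tested genes. Within siP53, R1 and R3 correlated at 0.9951, while R2 stood apart at 0.9759 to 0.9867 and was the siP53 array closest to the control arrays (0.9670 to 0.9810). The median SD of a gene was 0.20 in siP53 and 0.08 in siHnrnpk. Counts are therefore also given without siP53 R2. Fibroblast markers were high throughout, with a median signal of 11.15 to 11.74 in the siP53 arrays and 10.71 to 10.82 in the siHnrnpk arrays. In bulk RNA, fewer cells of a kind and less RNA per cell cannot be told apart.

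Both knockdowns left their mark on the array. Hnrnpk, the target of the second siRNA, had 12.71, 12.10 and 12.61 in siP53 cells, against 8.38, 8.34 and 9.94 in siHnrnpk cells and 12.68, 12.03 and 12.47 in siControl cells. The siHnrnpk arrays all lay below the other groups, with R3 less depleted than R1 and R2. The difference was 3.59 ± 0.41 (SE), or 12.1-fold (limma adjusted p = 0.000332), and 3 further Hnrnpk probe sets differed by 0.67 to 3.87. p53 activity was read from its targets. Cdkn1a, which encodes p21, had 10.52, 11.41 and 10.61 in siP53 cells, against 13.54, 13.60 and 13.54 in siHnrnpk cells and 13.53, 13.43 and 13.51 in siControl cells. Only the siP53 arrays were low, and R2 was the least low of them. The difference of -2.71 ± 0.22 had an adjusted p of 7.14e-05, and the second Cdkn1a probe set gave -3.82. Mdm2, the ubiquitin ligase that p53 induces and that degrades p53, had 8.55, 9.74 and 8.65 in siP53 cells, against 12.55, 12.46 and 12.49 in siHnrnpk cells and 12.25, 12.08 and 12.27 in siControl cells. Its siP53 arrays were again the lowest without overlap, by -3.52 ± 0.29 (adjusted p = 7.21e-05), with other probe sets between -3.98 and -0.62.

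**Figure D1:**
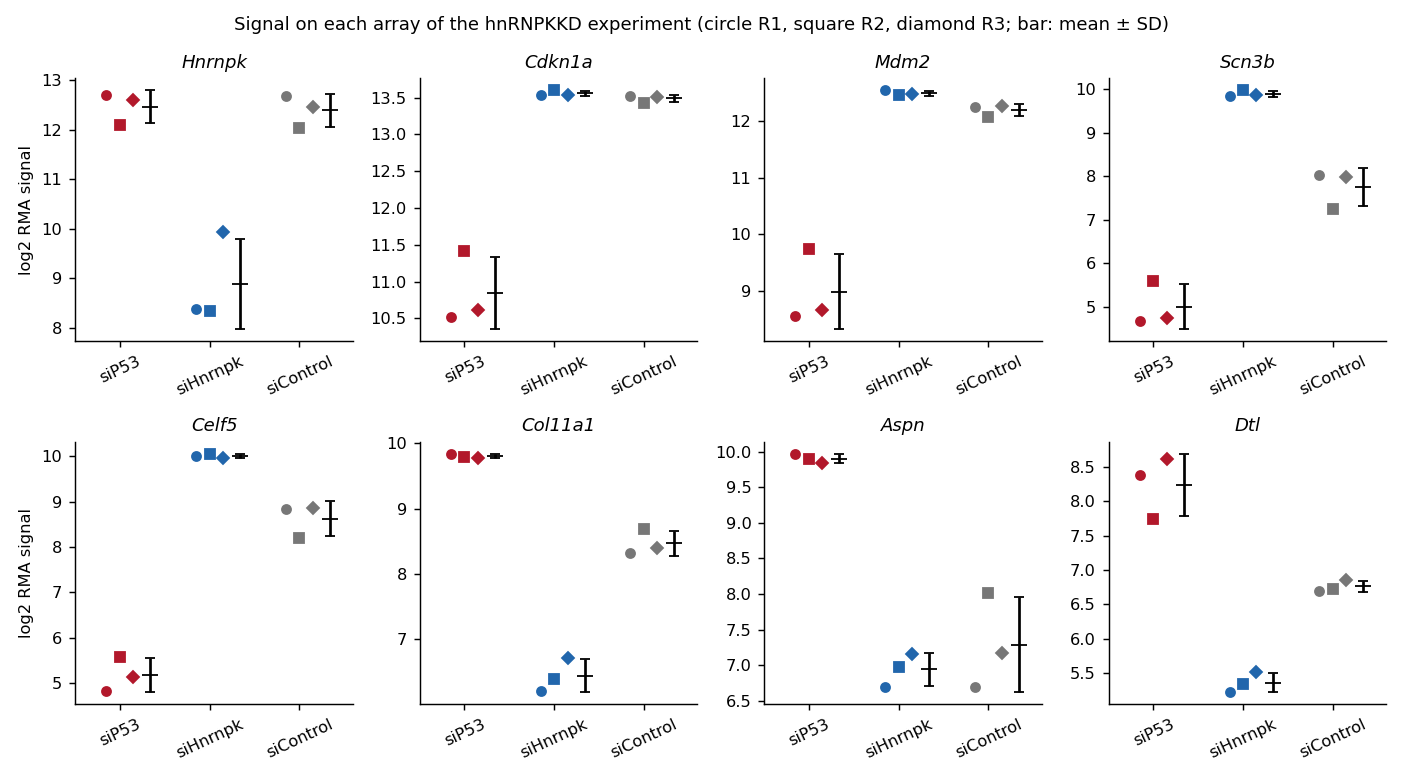
Log2 RMA signal (vertical axis) of Hnrnpk, Cdkn1a, Mdm2, Scn3b, Celf5, Col11a1, Aspn and Dtl on each siP53, siHnrnpk and siControl array, with a bar for the mean ± SD of the 3 arrays. Cdkn1a and Mdm2 were low only in siP53 cells and Hnrnpk only in siHnrnpk cells, while Scn3b and Col11a1 had control arrays between the knockdowns.

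Of 12674 tested genes, limma called 2402 higher and 2381 lower in siP53 than in siHnrnpk cells at an adjusted p below 0.05, which is 19.0% and 18.8% of all genes tested (37.7% together). The median difference was 0.00, with quartiles at -0.31 and 0.28. Past a fold of 2, 684 genes were higher (5.40%) and 784 lower (6.19%). Without siP53 R2 the counts were 3634 higher (28.7%) and 3718 lower (29.3%). The 3 arrays of one group did not overlap the 3 of the other for 3227 genes higher in siP53 (25.5%) and 3257 lower (25.7%).

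Several genes with the largest drop in siP53 cells lay near the filter limit there, a signal of 4.544, and were expressed in siHnrnpk cells. Scn3b, a sodium channel beta subunit that p53 is known to induce, had 4.67, 5.60 and 4.75 in siP53 cells, against 9.85, 9.98 and 9.87 in siHnrnpk cells and 8.03, 7.26 and 7.98 in siControl cells. The difference was -4.89 ± 0.23 (adjusted p = 9.53e-06), and the control arrays lay between the knockdowns. For this gene and others near the limit in siP53 cells, the size of the difference is read as a lower bound, and their order by size carries no weight. Celf5, an RNA-binding splicing regulator, had 4.82, 5.58 and 5.12 in siP53 cells, against 10.00, 10.06 and 9.97 in siHnrnpk cells and 8.84, 8.19 and 8.85 in siControl cells. Its difference was -4.84 ± 0.18 (adjusted p = 5.17e-06), and again siHnrnpk cells had more than the controls. Plek2, a pleckstrin family protein, had 4.95, 5.60 and 5.14 in siP53 cells, against 9.68, 9.57 and 9.46 in siHnrnpk cells and 8.14, 7.39 and 8.08 in siControl cells, the same order of the 3 groups.

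Tex15 (-4.51), a germ-cell gene, and Gjb5 (-4.06), a connexin, also fell in siP53 relative to siHnrnpk cells. So did the metabolic genes Acaa1b (-4.27), a peroxisomal thiolase, and Dcxr (-4.10), a xylulose reductase. Dpyd, which degrades pyrimidines, had 5.71, 5.83 and 5.97 in siP53 cells, against 9.71 on each siHnrnpk array and 8.21, 7.49 and 8.27 in siControl cells. The groups did not overlap, the controls lay between them, and the difference was -3.88 ± 0.10 (adjusted p = 4.31e-06). The remaining genes of the 12 lowest were Tbc1d8 (-4.24), a Rab GTPase-activating protein, Crip2 (-4.06), a LIM-domain protein, St14 (-3.92), the protease matriptase, and Dapk1 (-3.86), a death-associated kinase. One predicted gene that the naming rule passes over, 1700007K13Rik, was lower still and was picked after its values were seen. It had 5.12, 8.40 and 5.29 in siP53 cells, against 12.75, 12.84 and 12.73 in siHnrnpk cells and 11.63, 11.48 and 11.80 in siControl cells (-6.50 ± 0.77, adjusted p = 0.000396), with siP53 R2 well above R1 and R3.

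At the other end stood genes of matrix, signalling and replication. Col11a1, a fibril-forming collagen chain, had 9.84, 9.79 and 9.78 in siP53 cells, against 6.21, 6.39 and 6.71 in siHnrnpk cells and 8.32, 8.68 and 8.40 in siControl cells. The groups were far apart with the controls in the middle, and the difference was 3.36 ± 0.14 (10.3-fold, adjusted p = 6.29e-06). Aspn, a small leucine-rich matrix proteoglycan, had 9.97, 9.89 and 9.84 in siP53 cells, against 6.70, 6.97 and 7.16 in siHnrnpk cells and 6.69, 8.01 and 7.17 in siControl cells. Here the controls overlapped siHnrnpk, and siP53 stood alone at 2.96 ± 0.13 above siHnrnpk. Dtl, the substrate receptor that targets the licensing factor Cdt1 for destruction, had 8.38, 7.74 and 8.61 in siP53 cells, against 5.23, 5.34 and 5.51 in siHnrnpk cells and 6.70, 6.73 and 6.85 in siControl cells (2.88 ± 0.21). Its other probe sets moved less, by 0.47 to 0.87, and the mean of its probe sets gave 1.05.

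Stk26, a Ste20-family kinase, had 8.40, 7.98 and 8.60 in siP53 cells, against 4.95, 4.94 and 5.44 in siHnrnpk cells (3.22 ± 0.20). Adamts5, an aggrecan-cleaving protease, had 9.01, 8.61 and 8.97 in siP53 cells, against 6.18, 5.94 and 6.16 in siHnrnpk cells (2.77 ± 0.14). No array of either group overlapped for these genes. The others of the 12 highest were the ephrin receptor Epha3 (3.16, or 1.96 averaged over its probe sets), the aldo-keto reductase Akr1c14 (2.99), the kelch-like gene Klhl30 (2.84), the prostaglandin-degrading enzyme Hpgd (2.80), the matricellular protein Ccn5 (2.76) and Cbx5 (2.65), which encodes heterochromatin protein HP1 alpha. Cbx5 depended on its probe set, with others at 0.03 to 2.18 0.59 when the probe set was chosen over the 6 arrays alone, and 1.45 as their mean.

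Of the lists described here, activated p53 targets had the most genes low in siP53 cells. Of 58 listed, 52 were tested, and 43 were lower and 3 higher, so 82.7% were called lower against 18.8% of all genes. Their median difference was -1.90, against 0.00 over all genes, and without siP53 R2 the counts were 44 lower and 5 higher. The median signal of the list was 7.87, 8.45 and 7.85 on the siP53 arrays, against 10.11, 10.14 and 10.22 on the siHnrnpk arrays. The list was chosen with its direction in these data known, so its count is a description.

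Death genes were among the clearest. Pmaip1, which encodes the BH3-only protein Noxa, had 6.16, 6.43 and 6.06 in siP53 cells, against 9.77, 9.73 and 9.68 in siHnrnpk cells and 9.34, 8.65 and 9.25 in siControl cells (-3.51 ± 0.12, adjusted p = 4.63e-06). Fas, the death receptor, had 7.54, 8.10 and 7.32 in siP53 cells, against 10.78, 10.70 and 10.72 in siHnrnpk cells and 9.96, 9.32 and 9.89 in siControl cells (-3.08 ± 0.19, adjusted p = 2.42e-05). For both, siHnrnpk cells lay above every control array and siP53 cells below every one. Perp, a desmosomal and pro-apoptotic membrane protein, differed in that siHnrnpk cells were below the controls, with means of 7.90 in siP53, 10.49 in siHnrnpk and 11.17 in siControl cells. Apaf1, the apoptosome scaffold, fell by 1.73.

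Ddit4l, an inhibitor of mTORC1 signalling, had 7.51, 7.86 and 7.67 in siP53 cells, against 11.50, 11.40 and 11.23 in siHnrnpk cells and 10.58, 10.14 and 10.40 in siControl cells (-3.70 ± 0.13, adjusted p = 4.63e-06). Trp53inp1, a p53-induced stress protein, had 9.07, 9.22 and 9.12 in siP53 cells, against 11.82, 11.71 and 11.72 in siHnrnpk cells and 11.40, 10.90 and 11.21 in siControl cells (-2.61 ± 0.10). Slc19a2, a thiamine transporter, had 8.62, 8.62 and 8.91 in siP53 cells, against 11.54, 11.44 and 11.41 in siHnrnpk cells and 10.59, 10.16 and 10.43 in siControl cells (-2.74 ± 0.12). In these genes, too, all siHnrnpk arrays were above all control arrays.

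The 3 listed targets that were higher in siP53 cells were picked for naming after their values were seen, except Pcbp4. They were Thbs1 (2.23), which encodes the angiogenesis inhibitor thrombospondin, Tigar (1.28), a fructose bisphosphatase, and Pcbp4 (0.49), a relative of hnRNP-K. The list of p53 feedback regulators had 9 of 12 members lower and 1 higher, with a median of -0.96. Beside Mdm2 these included Ppm1d (-1.53), the Wip1 phosphatase that switches off damage signalling, Sesn2 (-2.00), a stress-induced inhibitor of mTORC1, and Zfp365 (-3.62). Trim24, a ubiquitin ligase for p53, was the member that was higher (0.92, picked after its values were seen). Without siP53 R2, 11 were lower. The general apoptosis list was split, with 7 of 34 higher (20.6%), 12 lower (35.3%) and a median of 0.02. Of all genes, 19.0% were higher and 18.8% lower.

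Promoter sequence was available from RefSeq (GRCm38.p6) as 250 bases before to 50 after the start of a gene. The p53 consensus element, searched by name as a pair of decamers on both strands, was found in the window of 1 of 41 listed targets with a window, Cdkn1a, and in 6 of 10232 tested genes (0.0586%) and 24 of 32851 windows in all (0.0731%). p53 elements also lie outside such windows, and the absence of a match says only that these letters are not in this one. The Cdkn1a stretch, chr17:29090894-29090949 on the plus strand, is shown because Cdkn1a was the readout of p53 activity. Capitals mark the paired decamers, which span bases 73 to 42 before the start. The search allowed a gap between decamers and no mismatch. The bases right after the second decamer miss the pattern only at their first base, so they stay in lower case, and the marked pair need not be the site that p53 uses.
Cdkn1a: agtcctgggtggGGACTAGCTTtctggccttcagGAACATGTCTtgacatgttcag

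Cell division genes ran the other way. Of 49 mitotic genes, all tested, 46 were higher in siP53 than in siHnrnpk cells (93.9%, against 19.0% of all genes) and 1 was lower. The median difference was 1.43, and without siP53 R2 the counts were the same, with a median of 1.52. List medians of signal were 9.80, 9.93 and 9.86 on the siP53 arrays, against 8.65, 8.72 and 8.72 on the siHnrnpk arrays, so siP53 R2 did not stand apart here. The lower gene was the spindle protein Ckap2 (-0.81), and those not called were Pttg1 (0.10), which encodes securin, and Ube2c (0.61), a ubiquitin-conjugating enzyme of the anaphase-promoting complex. These 3 were named after their values were seen.

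Kif20a, a kinesin of the central spindle, had 10.13, 10.13 and 10.14 in siP53 cells, against 8.65, 8.63 and 8.68 in siHnrnpk cells and 9.31, 9.48 and 9.30 in siControl cells (1.48 ± 0.09, adjusted p = 2.34e-05). Nuf2, a kinetochore subunit that binds microtubules, had 9.44, 9.44 and 9.37 in siP53 cells, against 7.64, 7.75 and 7.77 in siHnrnpk cells and 7.88, 8.43 and 8.03 in siControl cells (1.69 ± 0.10, adjusted p = 1.62e-05). Aurkb, the kinase of the chromosomal passenger complex, had 8.92, 8.78 and 8.70 in siP53 cells, against 6.75, 6.97 and 7.03 in siHnrnpk cells and 7.04, 7.45 and 7.08 in siControl cells (1.89 ± 0.12). The siP53 arrays were the highest in each case, and the control arrays lay above siHnrnpk without overlap for all 3 genes. Anln, which encodes anillin of the cleavage furrow, differed by 1.85 ± 0.12.

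DNA replication genes were higher as well, but less uniformly. Of 51 tested, 34 were higher (66.7%) and 2 lower, with a median of 0.80. Without siP53 R2 the counts were 37 higher and 4 lower, with a median of 0.74. The shares of all genes were 19.0% higher and 18.8% lower, or 28.7% and 29.3% without siP53 R2. Pole2, a subunit of DNA polymerase epsilon, had 9.57, 9.22 and 9.75 in siP53 cells, against 7.26, 7.16 and 7.49 in siHnrnpk cells and 8.54, 8.69 and 8.56 in siControl cells (2.21 ± 0.16). Cdc6, which loads the replicative helicase, had 8.72, 8.55 and 8.89 in siP53 cells, against 6.63, 6.49 and 6.75 in siHnrnpk cells and 7.77, 7.84 and 7.80 in siControl cells (2.10 ± 0.13, adjusted p = 2.27e-05). The control arrays sat between the knockdowns for both. Pola1, the catalytic subunit of polymerase alpha, differed by 1.93 ± 0.11, though its other probe set gave -0.05. The other Pole2 probe set gave 0.27. The initiation factor Mcm10 differed by 1.40, or 1.08 averaged over its probe sets. The lower members, named after their values were seen, were Rrm2 (-0.61), a ribonucleotide reductase subunit, and Orc5 (-0.40), of the origin recognition complex.

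**Figure D2:**
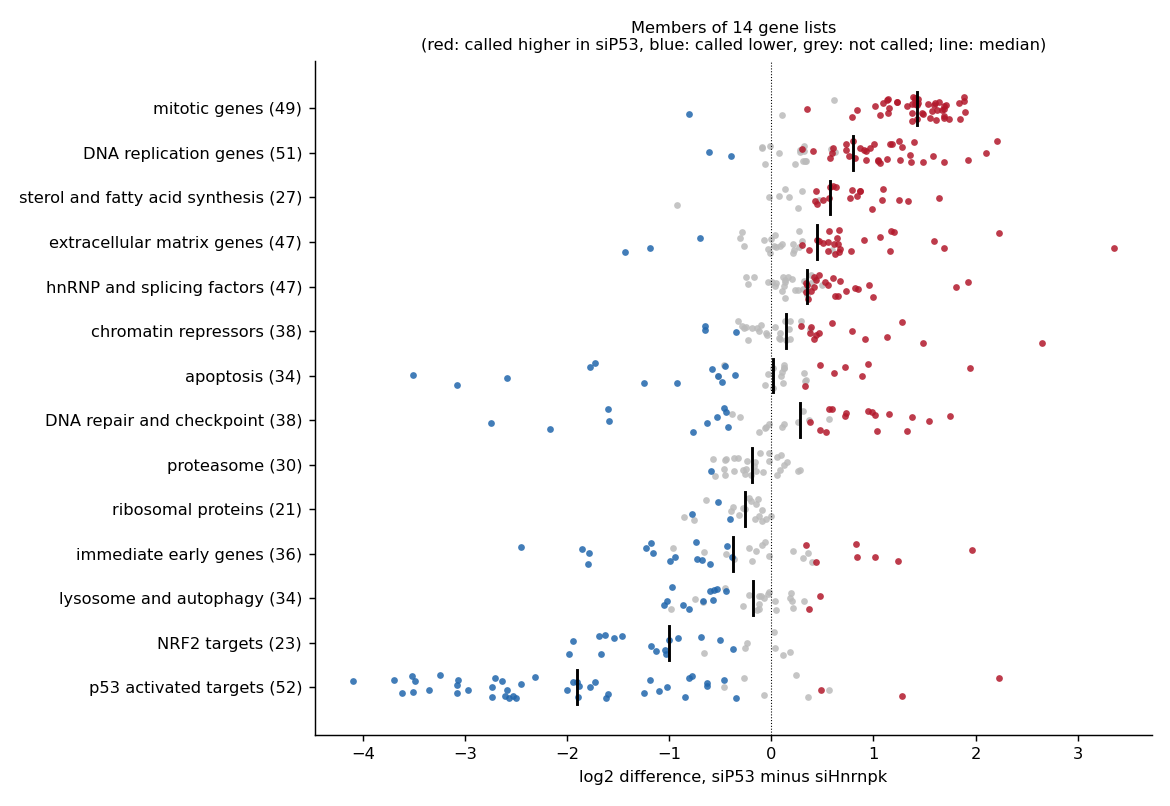
Log2 difference, siP53 minus siHnrnpk, of each tested member of 14 gene lists, 1 point per gene, with red for called higher, blue for called lower, grey for not called and a line at the median. Activated p53 targets and NRF2 targets lie to the left (medians -1.90 and -1.0), and mitotic and replication genes to the right (1.43 and 0.80).

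The sequences in front of these genes differed by group. The CHR motif, TTTGAA on either strand, which DREAM and MuvB complexes bind at late cell-cycle genes, was found in the windows of 31 of 44 mitotic genes (70.5%), against 8 of 43 replication genes (18.6%) and 1452 of 10232 tested genes (14.2%). E2F sites, searched as TTTCCCGC, TTTGGCGC and TTCCCGCC on either strand (the first and the last of these forms share most of their letters), were found in 20 of 43 replication genes (46.5%), against 2 of 44 mitotic genes (4.55%) and 678 tested genes (6.63%). Over all windows of the table the shares were 17.9% for CHR and 3.21% for E2F. Among genes called higher in siP53 the E2F share was 9.89%, among those called lower 5.39%, and the CHR shares were 16.1% and 13.1%. These shares describe the lists and say nothing of binding in these cells.

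The stretches below hold the match in capitals and are those of the called members with the smallest adjusted p whose match lies wholly before the start. In the condensin genes Ncapd2 (chr6:125191688-125191725, minus strand), Ncapg (chr5:45669879-45669916, plus strand) and Smc2 (chr4:52439060-52439097, plus strand) and in Top2a (chr11:99024191-99024228, minus strand), the topoisomerase that untangles chromosomes, the capitals mark the CHR motif or its reverse complement.
Ncapd2: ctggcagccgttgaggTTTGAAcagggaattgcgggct
Ncapg: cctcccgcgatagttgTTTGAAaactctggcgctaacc
Smc2: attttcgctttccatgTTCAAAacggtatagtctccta
Top2a: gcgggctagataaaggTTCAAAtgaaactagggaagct
In Top2a the match begins 23 bases before the start, and the gene had 10.60, 10.70 and 10.71 in siP53 cells, against 8.87, 9.06 and 9.16 in siHnrnpk cells and 9.65, 9.96 and 9.68 in siControl cells (1.64).

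For replication the stretches come from Pola1 (chrX:93632270-93632309, minus strand), Cdc6 (chr11:98907997-98908036, plus strand), Cdc7 (chr5:106964509-106964548, plus strand), the kinase that fires origins, and Mcm5 (chr8:75109344-75109383, plus strand), a helicase subunit. Capitals mark the E2F form as it reads on the gene's strand.
Pola1: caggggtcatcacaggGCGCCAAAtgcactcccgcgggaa
Cdc6: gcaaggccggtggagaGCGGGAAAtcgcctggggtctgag
Cdc7: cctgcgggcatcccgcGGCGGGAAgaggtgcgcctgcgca
Mcm5: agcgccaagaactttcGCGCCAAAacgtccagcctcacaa
Pola1 and Mcm5 hold the same form, and Pola1 and Cdc6 hold theirs at the same distance, with the first base 138 before the start. Cdc6 differed between the knockdowns by 2.10 and Mcm5 by 1.25.

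**Figure D3:**
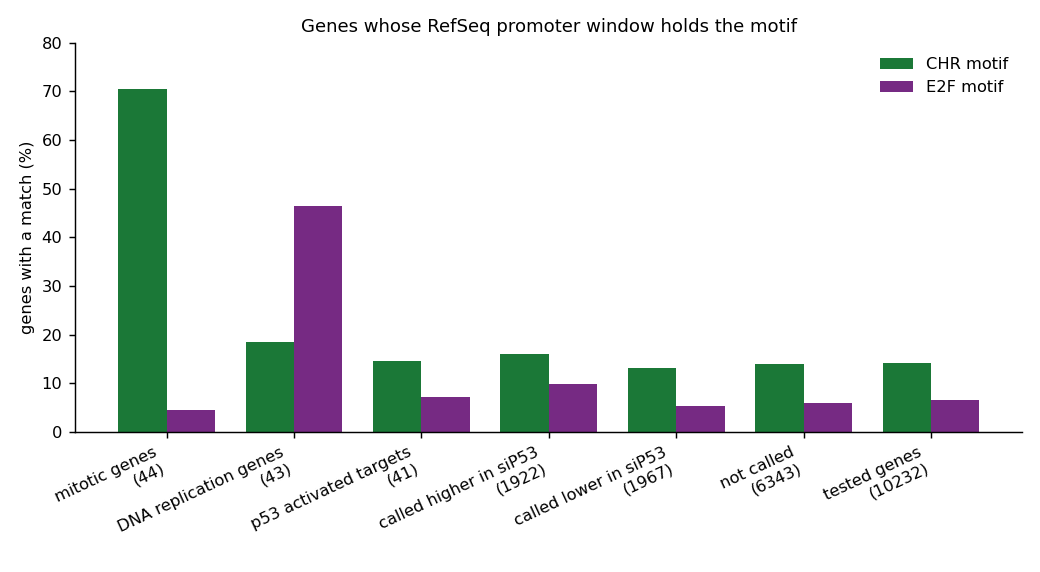
Share of genes (vertical axis, %) whose RefSeq window from 250 bases before to 50 after the start holds the CHR motif or an E2F form, for gene lists, called genes and all tested genes, with the number of genes in brackets. CHR stands out in mitotic genes (70.5%) and E2F in replication genes (46.5%), against 14.2% and 6.63% of tested genes.

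Regulators of the cycle were mixed. Of 25 CDK inhibitors, cyclins and CDKs, 9 were higher (36.0%) and 6 lower (24.0%), with a median of 0.36. Of all genes, 19.0% were higher and 18.8% lower. Ccne2, an S-phase cyclin, had 9.22, 8.71 and 9.23 in siP53 cells, against 6.92, 6.87 and 7.05 in siHnrnpk cells and 8.32, 7.84 and 8.04 in siControl cells (2.10 ± 0.16). Its groups were well apart, as were those of Cdk1, the mitotic kinase (1.15 ± 0.09), and Cdc25c, the phosphatase that activates it, rose by 1.06. In the E2F and retinoblastoma family, 8 of 19 were higher (42.1%) and 3 lower (15.8%), with a median of 0.10. The repressor E2f7 (1.70) and the mitotic activator Foxm1 (1.43) were higher, and E2f5 (-1.77, or -1.05 averaged over its probe sets) and Rb1 (-1.71) lower. Rb1, the retinoblastoma protein, had 8.22, 8.38 and 8.41 in siP53 cells, against 10.07, 10.06 and 10.02 in siHnrnpk cells and 8.74, 8.24 and 8.56 in siControl cells, so siHnrnpk stood apart while siP53 overlapped the controls. Its other probe set gave -0.33. The third gene of the family that was lower, named after its values were seen, was Rbl2 (-0.58), which encodes p130.

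DNA repair and checkpoint genes were split by gene, with 16 of 38 higher (42.1%) and 10 lower (26.3%) and a median of 0.28. Of all genes, 19.0% were higher and 18.8% lower. Lower were Xpa (-2.17), which verifies lesions in nucleotide excision repair, the translesion polymerase Polk (-1.60) and the mismatch repair gene Msh6 (-1.59). The other Xpa probe sets gave -0.07 and 0.11. Rad54l, a motor of homologous recombination, was higher (1.54).

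Splicing factors and other hnRNPs were lower with hnRNP-K knocked down than with p53 knocked down. Of 47 tested, 22 were higher in siP53 than in siHnrnpk cells (46.8%) and 0 lower by limma. At an unadjusted p below 0.05 the counts were 28 and 0. Without siP53 R2 they were 34 higher and 2 lower. The shares of all genes were 19.0% higher and 18.8% lower, or 28.7% and 29.3% without siP53 R2. The median difference was 0.35. Ptbp3, a splicing repressor of the PTB family, had 10.05, 9.48 and 10.01 in siP53 cells, against 7.92, 7.95 and 8.24 in siHnrnpk cells and 9.21, 9.05 and 9.11 in siControl cells (1.81 ± 0.17, adjusted p = 0.00015). Its other probe sets gave 0.31 to 0.51, and the mean of its probe sets 0.87. Hnrnph1, a G-tract-binding hnRNP, had 10.96, 11.34 and 11.08 in siP53 cells, against 10.10, 10.12 and 10.29 in siHnrnpk cells and 10.74, 10.92 and 10.93 in siControl cells (0.96 ± 0.13). Mbnl3, a muscleblind splicing regulator, differed by 1.93 ± 0.21, and by 1.22 averaged over its probe sets. For Ptbp3 and Hnrnph1 the siHnrnpk arrays lay below every other array.

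Srsf3, a serine/arginine-rich splicing factor whose gene is a neighbour of Cdkn1a, had 11.56, 11.63 and 11.45 in siP53 cells, against 10.56, 10.46 and 10.63 in siHnrnpk cells and 11.31, 11.39 and 11.44 in siControl cells (1.00 ± 0.10, adjusted p = 0.000224). It moved the opposite way from Cdkn1a, and its other probe sets ranged from -0.38 to 1.48. Of 14 tested genes at or near Cdkn1a, 2 were higher and 2 lower (14.3% each, median 0.10). Cdkn1a itself was one of the 2 lower. Both shares were below the 19.0% and 18.8% of all genes. Ppil1, a spliceosomal cyclophilin, was higher (0.59), and the p38 kinase Mapk13 was lower (-0.45). Both were called with all 6 arrays but not in every setting: Mapk13 reached an adjusted p of 0.131 when siP53 R1 was left out, and Ppil1 0.0537 without siHnrnpk R2.

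Among the relatives of hnRNP-K in the poly(C)-binding family, Pcbp4 was higher (0.49) and Pcbp3 lower (-0.53). Pcbp4 lost its call with the mean of its probe sets (adjusted p = 0.0544), and Pcbp3 without siHnrnpk R3 (adjusted p = 0.0529). Pcbp2 depended on the probe set: the brightest gave 0.11 (adjusted p = 0.427), others 0.83 to 1.26, and the average over them all 0.74, which was called (adjusted p = 0.00127). Of 38 chromatin repressors, 13 were higher (34.2%, against 19.0% of all genes) and 3 lower (7.89%, against 18.8%), with a median of 0.14. Uhrf1, which guides maintenance DNA methylation, was higher (1.49), as was Ezh2, the Polycomb methyltransferase (1.28), and its partner Eed was lower (-0.65). The other lower members, Jarid2 (-0.65) and Kdm5b (-0.35), were named after their values were seen.

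NRF2 targets, which defend against oxidants and make glutathione, were lower in siP53 than in siHnrnpk cells. Of 27 listed, 23 were tested, with 16 lower (69.6%) and 0 higher by limma. At an unadjusted p below 0.05, 17 were lower and 0 higher, and without siP53 R2, 18 were lower and 0 higher. The shares of all genes were 18.8% lower and 19.0% higher, or 29.3% and 28.7% without siP53 R2. The median was -1.0. Gclc, the catalytic subunit of the rate-limiting enzyme of glutathione synthesis, had 9.41, 9.59 and 9.50 in siP53 cells, against 11.19, 11.10 and 11.11 in siHnrnpk cells and 10.86, 10.70 and 10.72 in siControl cells (-1.63 ± 0.10, adjusted p = 2.31e-05), and a second probe set gave -1.59. Gclm, its modifier subunit, had 10.98, 11.02 and 10.88 in siP53 cells, against 12.15, 11.94 and 11.79 in siHnrnpk cells and 11.27, 11.34 and 11.07 in siControl cells (-1.0 ± 0.12), though its other probe set gave 0.33 and their mean -0.34. For Gclc the controls lay nearer to siHnrnpk, and for Gclm nearer to siP53.

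Gsta2, a glutathione transferase, fell by 1.69, and Slc7a11, the cystine transporter, fell by 1.54, with its other probe set at -0.15 and their mean at -0.85. The 7 members not called ran from Fth1 at -0.66 to Keap1 at 0.18, with Txnrd1, a classical target, at 0.03; they were named after their values were seen. Lysosome and autophagy genes had 11 of 34 lower (32.4%, against 18.8% of all genes) and 2 higher (5.88%, against 19.0%), with a median of -0.18. Dram1, known as a p53 target, was lower in siP53 than in siHnrnpk cells (-1.05). Its siControl mean of 5.88 lay below both, at 6.46 in siP53 and 7.51 in siHnrnpk cells, and it was called in neither other p53 contrast. Also lower were the lysosomal membrane protein Scarb2 (-0.97), the conjugation enzyme Atg7 (-0.87) and the initiating kinase Ulk1 (-0.67). The higher members, Neu1 (0.48), a sialidase, and Becn1 (0.37), an autophagy initiator, were named after their values were seen. With the mean of its probe sets Atg7 gave -0.26 and was no longer called (adjusted p = 0.0513).

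Sterol and fatty acid synthesis genes were higher in siP53 than in siHnrnpk cells, with a median of 0.57. By limma, 19 of 27 were higher (70.4%) and 0 lower (1 at an unadjusted p below 0.05). Without siP53 R2 the counts were 20 higher and 1 lower. The shares of all genes were 19.0% higher and 18.8% lower, or 28.7% and 29.3% without siP53 R2. Scd1, the stearoyl-CoA desaturase, had 11.24, 11.28 and 11.39 in siP53 cells, against 10.19, 10.21 and 10.24 in siHnrnpk cells and 10.09, 10.64 and 10.25 in siControl cells (1.09 ± 0.10, adjusted p = 0.000104). The siHnrnpk arrays lay within the range of the controls. Stard4, a sterol carrier, was higher by 1.64, Hsd17b7, of cholesterol synthesis, by 1.25 (0.75 averaged over its probe sets) and the elongase Elovl6 by 0.99. The siControl mean was closer to siHnrnpk for 17 of the 19 higher genes. For Hsd17b7 it was closer to siP53, at 9.42 against 9.69 in siP53 and 8.44 in siHnrnpk cells. Glycolysis and hypoxia genes had 11 of 31 higher (35.5%, against 19.0% of all genes) and 1 lower (3.23%, against 18.8%), with a median of 0.18. Bnip3, a mitophagy receptor induced by hypoxia, had 11.21, 11.07 and 11.39 in siP53 cells, against 9.03, 8.99 and 9.26 in siHnrnpk cells and 10.49, 11.00 and 10.83 in siControl cells (2.13 ± 0.13). Adrenomedullin, Adm (1.46), and the pyruvate dehydrogenase kinase Pdk1 (1.48) were higher too. The lower gene was Ddit4 (-0.57), an inhibitor of mTORC1 named after its values were seen.

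Matrix genes had 25 of 47 members higher (53.2%, against 19.0% of all genes) and 3 lower, with a median of 0.45. Beside Col11a1 and Aspn, the proteoglycan Lum (1.20) and the fibrillar collagen Col3a1 (1.06) were higher. Col18a1 (-1.43), a basement membrane collagen, Vcan (-1.19), the proteoglycan versican, and Has2 (-0.70), a hyaluronan synthase named after its values were seen, were lower. Fibroblast markers, a list that also holds Lum and Col3a1, had 9 of 15 higher and 0 lower by limma (median 0.51). At an unadjusted p below 0.05, 0 were lower too, and without siP53 R2, 11 were higher and 0 lower. The transcription factor Prrx1 (1.19) and the protease Fap (1.11) were among the higher markers. Matrix proteases and inhibitors had 4 of 23 higher (17.4%) and 3 lower (13.0%), with a median of 0.00. Both shares were below the 19.0% and 18.8% of all genes. Adamts5, Adamts1 (2.16) and the plasminogen activator Plat (1.19, or 0.69 averaged over its probe sets) were higher. Serpinb2, an inhibitor of plasminogen activators, fell by 2.47. Adamts4 (0.32) on the higher side and Mmp10 (-0.89) and Ctsb (-0.44) on the lower were named after their values were seen.

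Signalling lists were mixed, and are set beside 19.0% of all genes called higher and 18.8% called lower. Immediate early genes had 15 of 36 lower (41.7%) and 7 higher (19.4%), with a median of -0.38. Without siP53 R2, 20 were lower and 9 higher. The MAP kinase phosphatases Dusp6 (-1.79) and Dusp5 (-1.16) were lower and the AP-1 subunit Fosl2 (1.97, or 1.15 averaged over its probe sets) and the matricellular gene Ccn2 (1.24) higher. Growth factors and receptors had 11 of 35 higher (31.4%) and 6 lower (17.1%), with a median of 0.09. Tgfa, an EGF receptor ligand, had 5.32, 5.38 and 5.60 in siP53 cells, against 7.97, 7.94 and 8.01 in siHnrnpk cells and 8.59, 7.89 and 8.24 in siControl cells (-2.54 ± 0.11), with siP53 alone low and other probe sets at -0.14 and -0.13. Fgf18 (-2.33) and Pdgfa (-1.60) were lower and Fgf7 (1.52) higher. Contractile and TGF-beta genes had 14 of 32 higher (43.8%) and 6 lower (18.8%), with a median of 0.33. The higher ones included the calponin Cnn2 (0.74), the inhibitory Smad6 (1.10), the receptor Tgfbr1 (0.91, or 0.35 averaged over its probe sets) and the ligand Tgfb3 (0.74).

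Inflammatory and NF-kB genes had 9 of 28 higher (32.1%) and 6 lower (21.4%), with a median of 0.17. Of all genes, 19.0% were higher and 18.8% lower. Icam1, a leukocyte adhesion receptor, had 4.06, 4.97 and 4.20 in siP53 cells, against 7.76, 7.89 and 7.69 in siHnrnpk cells and 7.17, 6.63 and 7.15 in siControl cells (-3.37 ± 0.22), whereas the neutrophil chemokines Cxcl5 (2.42) and Cxcl1 (1.85) were higher and the cytokine Lif (-1.55, or -0.87 averaged over its probe sets) lower. Of 43 interferon-stimulated genes, 8 were higher (18.6%) and 4 lower (9.30%), with a median of 0.08, so the higher share was near that of all genes. Those lower included the peptide transporter Tap1 (-3.07, with other probe sets at -0.26 to 0.12), which p53 is also known to induce, and Ifi35 (-1.31). The others, named after their values were seen, were Tap2 (-0.79) and the immunoproteasome subunit Psmb9 (-0.90). Isg20 (1.04), an exonuclease, and Rsad2 (1.03, or 0.56 averaged over its probe sets), the antiviral enzyme viperin, were higher.

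Protein synthesis and turnover showed counts that hung on siP53 R2, as did the counts over all genes. Of all genes, 18.8% were lower with the 6 arrays and 29.3% without siP53 R2, and 19.0% and 28.7% were higher. Ribosomal protein genes had 3 of 21 lower (14.3%) and 0 higher by limma (5 and 0 at an unadjusted p below 0.05, median -0.26). Without siP53 R2, 13 were lower and 0 higher. The 3 called with all 6 arrays were Rps27l (-0.78), a p53-induced ribosomal protein, Rps6 (-0.52) and Rps19 (-0.41). Rps19 lost its call in several settings (adjusted p up to 0.0999). Proteasome genes had 1 of 30 lower (3.33%), Psmc1 (-0.59), and 0 higher by limma (2 and 0 at an unadjusted p below 0.05, median -0.19). Without siP53 R2, 17 were lower and 3 higher. Translation factors and tRNA synthetases had 7 of 27 higher (25.9%) and 2 lower (7.41%), with a median of 0.19. The synthetases Eprs (0.82), Yars (0.65) and Lars (0.45) were higher and the helicase Eif4a2 (-0.55) lower. Lars lost its call when single siHnrnpk arrays were left out (adjusted p up to 0.0698). Ribosome biogenesis had 6 of 25 higher (24.0%) and 1 lower (4.00%), Utp20 (-1.14), with the polymerase I subunit Polr1a (0.78) higher (median 0.13). Amino acid stress and unfolded protein genes had 13 of 34 higher (38.2%) and 4 lower (11.8%), with a median of 0.28. Atf3 (-1.18), a stress-induced transcription factor, was one of the lower.

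Markers of cells other than fibroblasts were mostly dim, and not all were tested. Their small counts stand beside 19.0% of all genes called higher and 18.8% called lower. Macrophage markers had 12 listed and 7 tested members, with 2 lower and 0 higher by limma, also at an unadjusted p below 0.05, and list medians of 5.08 to 5.45 on the siP53 arrays and 5.10 to 5.15 on the siHnrnpk arrays. The lower ones were the lysosomal protein Cd68 (-2.44) and the endotoxin co-receptor Cd14 (-2.00). Epithelial markers (12 listed, 7 tested) had 2 lower, the keratins Krt7 (-1.54) and Krt19 (-0.99), with list medians of 4.68 to 4.84 in siP53 and 5.42 to 6.15 in siHnrnpk. Krt18 was dim after both knockdowns, with 4.68, 4.84 and 4.69 in siP53 cells and 4.85, 4.87 and 5.27 in siHnrnpk cells, against 7.88, 7.77 and 8.05 in siControl cells. Its difference between the knockdowns was -0.26 (adjusted p = 0.184).

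Neural markers had 4 of 12 lower and 1 higher, including the transcription factor Sox2 (-1.71), the growth cone protein Gap43 (-1.87) and beta-tubulin Tubb3 (-1.04) on the lower side and the adhesion molecule Ncam1 (1.50) on the higher. Other Ncam1 probe sets ranged from -0.74 to 1.54, and the average over its probe sets above the filter limit was 0.52. Skeletal muscle markers had 1 of 9 higher, Acta1 (1.48), and 3 lower, Tnnc1 (-1.18), Tnni1 (-0.49) and Des (-0.47). Of these, Tnni1 (adjusted p up to 0.108) and Des (0.0507) lost their calls when single arrays were left out. Endothelial markers had 1 of 4 higher, Flt1 (0.97). Adipocyte markers had 1 of 4 higher, the lipase Lpl (1.76, or 1.12 averaged over its probe sets), and 2 lower, Pparg (-0.73) and Cebpa (-0.45). Cebpa lost its call in several settings, with an adjusted p of up to 0.162 (without siHnrnpk R2). Chondrocyte markers had 3 of 9 higher, including Col11a1, and 3 lower, including Sox5 (-1.27). Of 4 sex-linked genes, Eif2s3y was called (0.59, but adjusted p = 0.0679 without siHnrnpk R2), while Uty, Xist and Kdm5d differed by 0.39, -0.17 and -0.30 and were not called. The part of other cell types in the differences above was not tested.

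The control arrays place each knockdown, as a description. The differences of siP53 from siControl and of siHnrnpk from siControl share the control arrays and each shares an arm with the direct comparison. For genes called between the knockdowns, a control mean between them is no finding, and it lay between for 1647 of the 2402 higher genes (68.6%) and 1739 of the 2381 lower genes (73.0%). The control mean was closer to siHnrnpk for 61.0% of the higher and 64.6% of the lower genes. Of the 43 lower p53 targets, it was closer to siHnrnpk for 40. List medians were -1.70 for siP53 minus siControl and 0.27 for siHnrnpk minus siControl. For mitotic genes the medians were 1.03 and -0.42, and the control mean was closer to siHnrnpk for 44 of the 46 higher genes.

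Splicing factors had the other order, with medians of 0.10 for siP53 minus siControl and -0.24 for siHnrnpk minus siControl, and with the control mean closer to siP53 for 15 of the 22 higher genes. Chromatin repressors had medians of 0.01 and -0.14, with 8 of the 13 higher genes closer to siP53. Replication genes had medians of 0.43 and -0.25, NRF2 targets -0.50 and 0.21, sterol synthesis 0.61 and 0.07, and matrix genes 0.42 and 0.04. So the NRF2 and replication lists had knockdown medians on either side of the control, while for sterol and matrix genes the siHnrnpk median lay near 0.

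**Figure D4:**
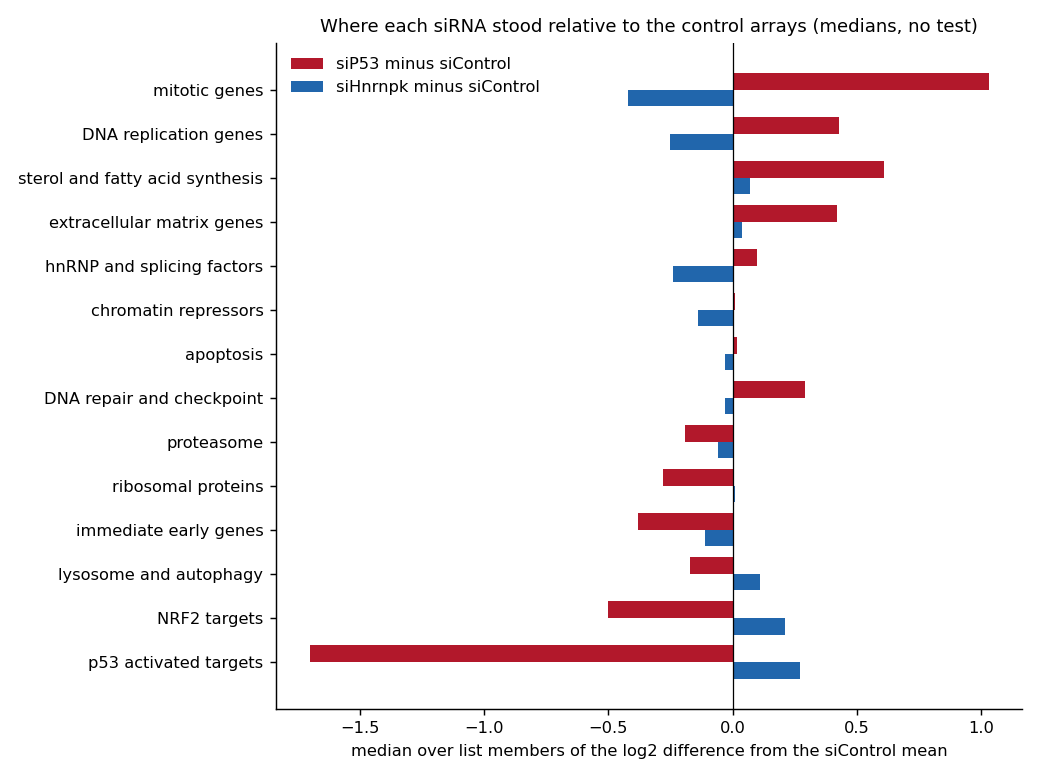
Median over list members (horizontal axis, log2) of siP53 minus siControl and siHnrnpk minus siControl for each gene list, 2 bars per list that share the control arrays and carry no test. The p53 targets have -1.70 and 0.27, the mitotic genes 1.03 and -0.42, and the splicing factors 0.10 and -0.24.

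The lincP21KD experiment and the time course, which share no array with the direct comparison, were set beside it. In lincP21KD, siP53 against siScramble gave 888 genes higher (7.01%) and 727 lower (5.74%), and in the time course AdenoCRE against AdenoGFP gave 1636 higher (12.9%) and 791 lower (6.24%). Cdkn1a had 10.53, 10.31 and 10.68 with siP53 in lincP21KD, against 12.48 and 12.68 with siScramble (-2.07 ± 0.11, adjusted p = 4.91e-06 by limma). It was higher with AdenoCRE than AdenoGFP at every time, by 3.50, 3.46, 3.96, 4.49 and 3.83 at 0, 1, 3, 6 and 9 h. Mdm2 differed by -2.36 ± 0.15 with siP53 in lincP21KD, and its excess with AdenoCRE was 1.28, 0.98, 2.59, 2.83 and 3.05 over the same hours. Hnrnpk differed by 0.02 ± 0.11 in lincP21KD (adjusted p = 0.940) and by -0.33 in the time course (adjusted p = 0.0819).

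Of the 2381 genes lower in siP53 than in siHnrnpk cells, 514 were also lower with siP53 in lincP21KD, which is 21.6% of the direct list and 70.7% of the other, and 58 were higher there. Among the 2402 higher genes, 452 were higher in lincP21KD (18.8% and 50.9%) and 47 lower. Against the time course, 876 of the lower genes were higher with AdenoCRE (36.8% and 53.5%) and 23 lower, and 407 of the higher genes were lower with AdenoCRE (16.9% and 51.5%) and 153 higher. Called in neither were 1260 of the lower genes (52.9%) and 1507 of the higher (62.7%). Over 12674 genes, measured on arrays of the same design, the direct difference correlated with siP53 minus siScramble at r = 0.512 and with AdenoCRE minus AdenoGFP at r = -0.551, as a description across genes.

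**Figure D5:**
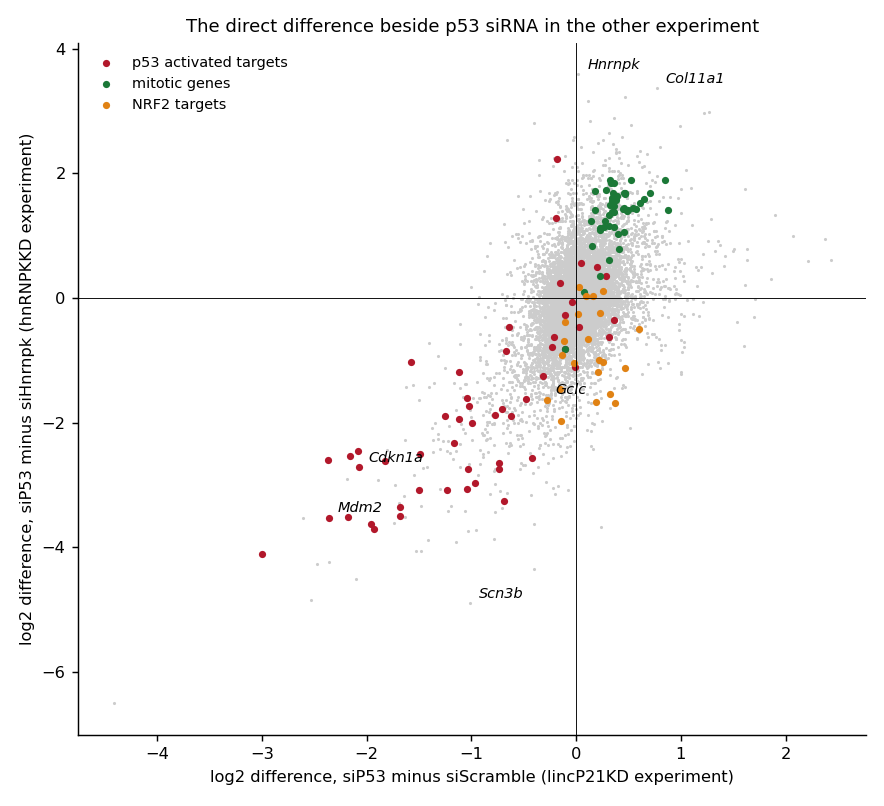
Log2 difference siP53 minus siHnrnpk in the hnRNPKKD experiment (vertical axis) against siP53 minus siScramble in the lincP21KD experiment (horizontal axis), 1 point per tested gene, with p53 targets in red, mitotic genes in green and NRF2 targets in orange. Most p53 targets lie below 0 on both axes (35 of 52 were called lower in lincP21KD), against 1 of 23 NRF2 targets, and the lone point at the lower left is 1700007K13Rik (-6.50 and -4.41).

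The lists parted here. Of the 43 p53 targets lower in siP53, 35 were lower in lincP21KD and 37 higher with AdenoCRE, and 3 were called in neither. Pmaip1 had -2.18 in lincP21KD and 2.35 in the time course, and Fas had -1.50 and 1.64. Of the 46 higher mitotic genes, 23 were higher in lincP21KD and 26 lower with AdenoCRE, with 13 in neither, and of the 19 higher sterol genes 11 and 13, with 2 in neither. Replication genes had 4 and 13 of 34, with 18 in neither.

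Of the 22 higher splicing factors, 0 were higher in lincP21KD by limma (over the whole list, 2 at an unadjusted p below 0.05). Lower with AdenoCRE were 7, and 15 were called in neither. Of all higher genes, the shares were 18.8%, 16.9% and 62.7%. Of the 16 lower NRF2 targets, 1 was lower in lincP21KD and 4 higher with AdenoCRE, with 10 in neither. Of all lower genes, the shares were 21.6%, 36.8% and 52.9%. For both lists, the count in neither thus lay near the share of all called genes. Gclc differed by -0.28 in lincP21KD (adjusted p = 0.253) and 0.35 in the time course (adjusted p = 0.0624). Srsf3 differed by -0.05 in lincP21KD (adjusted p = 0.789). Interferon-stimulated genes, mixed in the direct comparison, had 28 of 43 higher in lincP21KD and 20 lower with AdenoCRE. Whether a gene's difference was itself larger in one experiment than in another was not tested, since the contrasts have different controls.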

How the data were processed

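RNA was measured on Affymetrix arrays, and the deposited values are log2 signals per probe set that the authors made with RMA (per the submitters' processing notes; its version: not given in the sources used here). They were used without further scaling. Of 45101 probe sets, 34958 had 1 gene symbol, 932 several and 9211 none, and symbols of 34754 were updated through RefSeq (GRCm38.p6). Each of 18194 genes was read from the brightest of its probe sets, by the mean of the 30 arrays, and the lowest 40% of probe sets (below 4.544) were left out, leaving 12674 genes. The table had 0 columns of no sample. Groups came from the labels.

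Linear models (limma 3.58.1, R 4.3.3, lmFit and eBayes) were fitted to the 6 arrays of the comparison, to the 8 arrays of the lincP21KD experiment and to the 10 time course arrays with time as a block. Benjamini-Hochberg adjustment ran across the tested genes, with genes called below 0.05; the procedure was tested on simulated data. The number of arrays limits the precision. Members, gene lists and tests were chosen with earlier results of these data known, so list counts are descriptions. Named genes are Hnrnpk, Cdkn1a, Mdm2, the 12 highest and 12 lowest called genes whose arrays do not overlap, and up to 4 members of each list with the smallest adjusted p, passing over predicted genes. Others are marked where they appear. The genes of the printed stretches were picked by adjusted p among members with a match, passing over chromosome 18. Motifs were searched in RefSeq promoter windows. Alternatives covered the arrays in the fit, the filter, probe set choice, scaling, variance model, array weights, left-out arrays and a replicate block. Same-numbered siP53 and siHnrnpk arrays deviated together at r = 0.218, 0.189 and -0.0314, so the numbers were not taken as pairs.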

Additional observations from a re-analysis of the deposited data

How the results depend on the processing

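Direct counts of 2402 higher and 2381 lower genes in siP53 than in siHnrnpk cells were 3634 and 3718 without siP53 R2, and 4837 and 4993 with array weights, whose iteration stopped before it converged. Leaving out each array in turn gave 1631 to 3634 higher and 1615 to 3718 lower. A replicate block (pairing by number) gave 2365 higher and 2354 lower and kept 4458 of 4783 calls with 0 opposite. Other settings stayed within 1.5 times, the widest being all 12 arrays of the experiment in the fit (2846 and 2898); centring on medians gave 2665 and 2152. Of 145 called named genes, 12 had any value that lost its call or turned over 16 settings (31 of 2303 values lost the call and 1 turned). The one that turned was Cebpg, at -0.047 with the probe set chosen over the 6 arrays, against 0.81.

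In lincP21KD, leaving out arrays gave 288 to 727 higher and 295 to 586 lower genes, against 888 and 727. Without siScramble R1 the counts were 288 and 332, and without R2 406 and 295, where the lone control array is assumed to vary like the other groups; the replicate block gave 980 and 810. Hnrnpk there, at 0.02, was -0.002 with the replicate block, and leaving out arrays gave -0.075 (without siP53 R2) to 0.122, with -0.022 without siScramble R2. The time course without its time block gave 949 higher and 355 lower genes, against 1636 and 791, and leaving out a time pair 817 to 1397 and 329 to 658. Except where fewer arrays entered, the cause was not tested. Probe sets near the filter limit have little signal over background, so small differences of dim genes are uncertain.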
